A study of Mus musculus with 12 samples.

Results

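The genes described here encode 7 core proteins of microRNA processing: Drosha, Dgcr8, Xpo5, Dicer1, Tarbp2, Ago1 and Ago2. Their chromatin was read as every region of the deposited ATAC-seq table that overlapped one of these genes or the 10 kb on either side of it, which gave 56 of 63309 regions. Ago2 held 26 of them, Drosha 9, Tarbp2 6, Xpo5 and Ago1 5 each, Dgcr8 4 and Dicer1 1.

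ATAC-seq marks open chromatin by letting a transposase insert sequencing adapters into accessible DNA. The libraries were made from the subsets of invariant natural killer T (iNKT) cells called iNKT1, iNKT2 and iNKT17, taken from the thymus of C57BL/6 (wild-type) mice and of Hivep3-/- mice on the C57BL/6 background. All mice were untreated and 8-9 weeks old. There were 2 libraries for each of the 6 groups of subset and genotype, 12 in all. Cells came from pooled thymi, were transposed with the subsets mixed, and were then separated again by ICOS and CD138 alone, because the reaction quenched the CD122 and Izumo1r stains. Hivep3-/- mice lack the gene in every cell, so a difference between genotypes need not arise within the iNKT cell itself. The titles number the libraries by mouse although the thymi were pooled, so p-values measure the spread between libraries that may share animals across subsets.

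MicroRNAs are short RNAs that repress messenger RNAs. In the nucleus, the RNase III enzyme DROSHA and its RNA-binding partner DGCR8 form the Microprocessor, which cuts a hairpin out of the primary transcript. XPO5 exports the hairpin, DICER1 with TARBP2 trims it to a short duplex in the cytoplasm, and an Argonaute protein such as AGO1 or AGO2 carries the mature strand to its targets. Loss of this machinery in developing T cells is known to impair iNKT cells.

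Accessibility is given as log2 normalized transposase insertions per kb, so that a difference of 1 is a doubling. A region was called where limma gave a Benjamini-Hochberg adjusted p under 0.1 over all tested regions and the genotypes differed at least 3-fold, and it was tested where the mean on the linear scale was at least 5 in either genotype. The table carries no counts and its depth is unknown. The number of distinct values below a library's median ran from 73 to 491 and was lowest in the Hivep3-/- iNKT17 libraries (85 and 73). Subset markers followed the labels in part. The mean at the Tbx21 promoter was 5.17, 4.58 and 3.71 in C57BL/6 iNKT1, iNKT2 and iNKT17 cells. That at the promoter of Sdc1, which encodes the sorting marker CD138, was 3.55, 3.80 and 6.25. The promoter of Icos, which encodes the other sorting marker, was at 5.56, 5.502 and 5.53 in C57BL/6 iNKT1, iNKT2 and iNKT17 cells. Of 11 markers of B cells, myeloid cells, thymic epithelium and immature thymocytes, 8 had no promoter region in the table (among them Cd79a, Lyz2, Csf1r, Foxn1, Rag1, Cd8a and Ptcra). The other 3 ran over the libraries from 2.83 to 4.80 (Pax5), 4.08 to 5.35 (Spi1) and 2.39 to 4.40 (Epcam). The Pax5 promoter moved with genotype in iNKT1 cells, with a mean of 2.92 in C57BL/6 and 3.54 in Hivep3-/- cells and no overlap. The part of these markers in the results was not tested. At the Hivep3 locus itself 20, 18 and 12 of 21 regions were tested in iNKT1, iNKT2 and iNKT17 cells. Of these, 0 were called by limma, against 625 of 54145, 923 of 55049 and 147 of 54311 over all regions. An unadjusted p under 0.05 was found at 5, 3 and 5, against 9644, 13911 and 8570 over all tested regions. At an adjusted p under 0.1 and any fold, 2, 1 and 2 rose and 0, 1 and 0 fell. Over all tested regions 5.49%, 8.26% and 2.66% rose so and 3.93%, 8.16% and 1.99% fell. The table therefore does not check the deletion.

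Drosha was the only one of the 7 genes with regions called between genotypes by limma. In iNKT1 cells, 5 of the 9 Drosha regions were called less accessible in Hivep3-/- cells, against 0.264% of all tested regions, and 0 of 46 tested regions of the other 6 genes were called, with 6 at an unadjusted p under 0.05. At that background 0 of 46 is a share that says little about these genes. In iNKT2 cells 1 Drosha region was called lower (1.20% of all tested regions), and in iNKT17 cells 0 of the 6 that were tested (0.138%). Counting falls of any size at an adjusted p under 0.1, Drosha had 7, 1 and 2 falling regions in iNKT1, iNKT2 and iNKT17 cells, and the other 6 genes together had 0, 0 and 0. Over all tested regions these falls made up 3.93%, 8.16% and 1.99%. With the replicate number as a block, Drosha had 7, 1 and 4 such falls and the other 6 genes 0, 3 and 2, against 6.42%, 12.5% and 5.08% of all tested regions. Regions inside the gene and away from the start site, where Drosha fell, were present only for Ago2 (22 regions) among the other 6 genes. Dgcr8, Xpo5, Dicer1, Tarbp2 and Ago1 had only promoter regions and regions in their flanks, most of them in neighbouring genes. A lower value in a sorted population can come from fewer cells with the region open or from less opening per cell, and these cannot be told apart here.

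Of the 5 Drosha regions called in iNKT1 cells 4 are shown first, since the result rests on these regions. Drosha lies on the plus strand of chromosome 15 (chr15:12824815-12935291, mm10, ENSMUSG00000022191.16) and spans 110477 bp. Each line gives up to 300 bases of a 500 bp region from GRCm38.p6, plus strand, named by the distance of the region's centre from the start site. Capitals mark a match to a searched motif, and lower case the rest.
Drosha 33.5 kb, intron 10, chr15:12858139-12858438: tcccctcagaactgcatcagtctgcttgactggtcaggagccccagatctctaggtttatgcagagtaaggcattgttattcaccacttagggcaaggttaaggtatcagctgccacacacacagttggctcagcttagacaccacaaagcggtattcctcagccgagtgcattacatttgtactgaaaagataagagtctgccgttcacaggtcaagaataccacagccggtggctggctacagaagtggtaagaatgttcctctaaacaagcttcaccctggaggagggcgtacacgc
Drosha 40.0 kb, exon 13, chr15:12864707-12865006: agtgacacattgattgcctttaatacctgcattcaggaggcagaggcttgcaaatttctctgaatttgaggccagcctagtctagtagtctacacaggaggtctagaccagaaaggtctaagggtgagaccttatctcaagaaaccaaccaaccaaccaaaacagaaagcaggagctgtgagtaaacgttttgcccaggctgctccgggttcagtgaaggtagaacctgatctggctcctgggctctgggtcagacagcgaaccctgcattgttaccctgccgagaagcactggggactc
Drosha 99.2 kb, exon 30, chr15:12923876-12924175: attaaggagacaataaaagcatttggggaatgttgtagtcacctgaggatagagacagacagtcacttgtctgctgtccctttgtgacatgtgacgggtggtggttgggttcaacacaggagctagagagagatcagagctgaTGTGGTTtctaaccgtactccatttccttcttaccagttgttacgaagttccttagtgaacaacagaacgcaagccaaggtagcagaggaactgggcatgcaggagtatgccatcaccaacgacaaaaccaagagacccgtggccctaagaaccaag
Drosha 101.1 kb, exon 31, chr15:12925719-12926018: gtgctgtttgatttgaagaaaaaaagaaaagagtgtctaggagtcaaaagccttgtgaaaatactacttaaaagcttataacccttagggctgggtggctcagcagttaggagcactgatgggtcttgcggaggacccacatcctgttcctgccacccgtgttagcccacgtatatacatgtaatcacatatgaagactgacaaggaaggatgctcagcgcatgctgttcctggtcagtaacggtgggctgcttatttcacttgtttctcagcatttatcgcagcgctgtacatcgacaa

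Exon and intron numbers are those of the principal transcript with 35 exons (ENSMUST00000169061.7), and none of the 5 regions overlapped an annotated UTR. Both strands were searched for 6 short motifs. The Runt motif AACCACA, printed above as its reverse complement in the 99.2 kb region, was in that and the 104.4 kb region, that is in 2 of 5, and in 17.4% of all regions of the table. The T-box motif GGTGTGA, the ETS motif CGGAAGT, the TCF motif TCAAAGG, the AP-1 motif (TGACTCA or TGAGTCA) and the NF-kB motif were in 0 of the 5. These were in 8.57%, 5.60%, 9.55%, 11.5% and 8.60% of all regions. The T-box and the ETS motif had a match in the 16.1 kb region, which is not among the 5. A match or its absence describes the letters only. GC content ran from 46.0% to 50.0% in the 5 regions, against 65.2% at the Drosha promoter.

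Among the Drosha regions the changes differed by position. The promoter region (chr15:12824465-12824964, centred 100 bp upstream of the start site and shared with the neighbouring gene 6030458C11Rik) was at 7.06 and 7.08 in C57BL/6 and 6.999 and 6.940 in Hivep3-/- iNKT1 cells. In iNKT2 cells it was at 7.08 and 7.04 against 7.01 and 6.85. In iNKT17 cells it was at 7.03 and 6.90 against 7.06 and 6.80. The promoter was therefore among the more open regions in every library, and its fitted changes of −0.10 ± 0.0899, −0.13 ± 0.0899 and −0.04 ± 0.0899 (SE) in the 3 subsets did not pass the test (adjusted p = 0.685, 0.414 and 0.897). The 95% interval of the iNKT1 change, −0.29 to 0.09, leaves out a fall of the size seen inside the gene. The region at 16.1 kb, in intron 5 and beside the start of Gm47288, held between 2.30 and 3.54 in all 12 libraries and also did not pass (changes of 0.13, 0.08 and 0.48).

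The fall began with a pair of regions in intron 10. At 32.2 kb, C57BL/6 iNKT1 cells had 2.70 and 3.34 and Hivep3-/- iNKT1 cells 2.22 and 1.91, a fall by 0.96 that was under 3-fold (adjusted p = 0.0448). At 33.5 kb the values were 3.20 and 2.98 against 1.10 and 1.54, a 3.41-fold fall that was called (adjusted p = 0.00285) but was under 3-fold without Hivep3-/- iNKT1 replicate 1 (−1.55). The genotypes did not overlap at either region. In iNKT2 cells the same regions stayed open in Hivep3-/- cells, with 3.83 and 3.92 at 32.2 kb and 3.48 and 3.65 at 33.5 kb, against 3.90 and 3.90 and 4.01 and 3.62 in C57BL/6 cells. In iNKT17 cells they lay at 2.79 and 2.49 against 2.08 and 1.66, and at 3.12 and 2.67 against 2.30 and 1.57. Those iNKT17 differences of −0.77 and −0.96 had adjusted p-values of 0.152 and 0.110 by limma. With the replicate number as a block both passed the test of p (adjusted p = 0.0874 and 0.0448), under 3-fold.

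Exon 13, 40.0 kb into the gene, was nearly closed in Hivep3-/- iNKT1 cells. C57BL/6 iNKT1 libraries had 2.87 and 2.88, and Hivep3-/- libraries 0.40 and −0.12, a 6.66-fold fall (adjusted p = 0.00411). In iNKT2 cells it was at 3.20 and 2.98 against 2.89 and 2.52, a change of −0.38 (adjusted p = 0.678). Both genotypes were low in iNKT17 cells, with 1.56 and 0.10 against −0.41 and 0.63, and the region was not tested there.

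The region at 70.9 kb in intron 22 (chr15:12895447-12895946) was the most open of the Drosha regions away from the promoter, and the one with the smallest SE of the 9. It stood at 6.32 and 6.31 in C57BL/6 and 5.06 and 5.01 in Hivep3-/- iNKT1 cells. In iNKT17 cells it went from 6.67 and 6.63 to 5.95 and 6.00. In iNKT2 cells it was at 7.16 and 7.14 against 7.21 and 7.20. The falls of 2.43-fold in iNKT1 (−1.28 ± 0.0741, SE, adjusted p = 2.65e-06) and 1.60-fold in iNKT17 cells (−0.68 ± 0.0741, adjusted p = 0.00125) passed the test of p but were under 3-fold, so the counts of called regions leave this region out. The iNKT2 change was 0.06 (adjusted p = 0.705), with a 95% interval from −0.10 to 0.21.

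The 3 regions nearest the 3′ end of the gene had falls of 4.86- to 18.6-fold in iNKT1 cells. At 99.2 kb (exon 30) the values were 4.86 and 4.72 against 2.67 and 2.35, a 4.86-fold fall (adjusted p = 9.84e-06). At 101.1 kb (exon 31) they were 3.98 and 3.68 against 0.40 and 0.10, a 12.0-fold fall (adjusted p = 0.00297). At 104.4 kb (intron 33) they were 4.19 and 3.83 against 0.20 and −0.61, an 18.6-fold fall (adjusted p = 0.000265). At each of them both Hivep3-/- libraries lay well below both C57BL/6 libraries, and the 104.4 kb region had the largest change of the 56 regions in iNKT1 cells. The size of these falls depended on the low Hivep3-/- values. With a pseudocount of 1 added to the linear values the 3 changes were −2.10, −2.80 and −3.18. With a pseudocount of 5 they were −1.61, −1.64 and −1.84.

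The same 3 regions behaved differently in the other subsets. In iNKT2 cells the 99.2 kb region was at 5.85 and 5.79 against 5.76 and 5.76, with a change of −0.06 (adjusted p = 0.876). At 101.1 kb it was 4.05 and 4.11 against 3.02 and 2.65, and the change of −1.24 did not pass (adjusted p = 0.210), although the genotypes did not overlap. At 104.4 kb it was 2.98 and 2.83 against 0.90 and 1.02, the only Drosha region called in iNKT2 cells (3.86-fold lower, adjusted p = 0.0218). That call was lost without C57BL/6 iNKT2 replicate 1 (−1.87, adjusted p = 0.126), and a pseudocount of 1 brought the change under 3-fold (−1.53). Over its alternatives the adjusted p ran from 0.000327 to 0.126. In iNKT17 cells the 99.2 kb region fell by 1.13, from 4.15 and 4.04 to 3.13 and 2.79 (adjusted p = 0.00582), which is 2.19-fold. At 101.1 kb both genotypes were low, with 0.28 and −0.17 against −3.06 and −0.55, where −3.06 is the lowest value of that library. At 104.4 kb iNKT17 cells had 1.91 and 2.05 against −1.52 and 0.19. These last values did not reach the level required for testing in iNKT17 cells. Without that requirement the 104.4 kb region was called in iNKT17 cells too (−2.65, adjusted p = 0.0150).

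**Figure D1:**
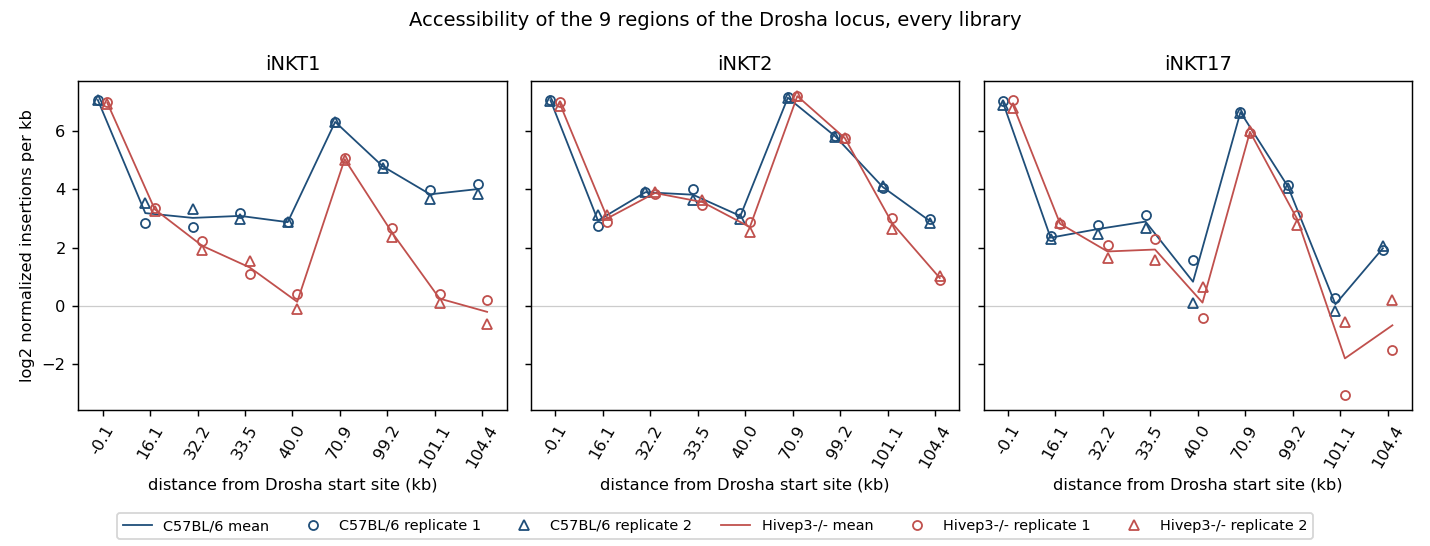
Accessibility (log2 normalized insertions per kb) of the 9 Drosha regions, ordered by distance from the start site in kb, in iNKT1, iNKT2 and iNKT17 cells. Circles and triangles are the 2 libraries of a group and lines their mean. In iNKT1 cells the mean change is −0.10 at the promoter (−0.1 kb) and −4.21 at 104.4 kb, while in iNKT2 cells it is −0.13 and −1.95.

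In iNKT1 cells 8 of the 9 Drosha regions had both Hivep3-/- libraries below both C57BL/6 libraries, which 28.0% of all tested regions did. The counts were 5 of 9 in iNKT2 cells (26.4% of all) and 4 of the 6 tested in iNKT17 cells (22.8%). The median change over the tested Drosha regions was −1.77, −0.13 and −0.72 in iNKT1, iNKT2 and iNKT17 cells, and −0.02, −0.00 and −0.01 over all tested regions. Along the gene, the change became more negative with distance from the start site, with a Spearman rho of −0.90, −0.58 and −0.83 over the 9 regions in the 3 subsets. The iNKT17 value takes in 3 regions that were too low to be tested there. The regions are neighbours in the same libraries, so this order is a description.

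Averaged over the subsets, 7 of the 9 Drosha regions fell at an adjusted p under 0.1, against 5830 of 63308 tested regions. At 3-fold 2 of the 7 were called lower, against 0.327% of all tested regions. These were the 101.1 kb (−2.23 ± 0.341, SE, adjusted p = 0.00115) and 104.4 kb regions (−2.94 ± 0.280, adjusted p = 4.47e-05). Both means take in iNKT17 changes (−1.86 and −2.65) from values too low to be tested in that subset. The test also takes the libraries of the subsets as independent. They were transposed together and may share animals, so the SE and p of these means may be too small. Few genes had as many called regions as Drosha in iNKT1 cells. Of 15405 protein-coding genes with a region in the gene or its 10 kb flanks, 90 held a region called lower in iNKT1 cells and 4 held 3 or more. Zbtb16, which encodes the iNKT transcription factor PLZF, had 6 of 86, Drosha 5 of 9, Lrig1 3 of 15 and Npas2 3 of 14. Drosha was chosen with earlier results of these data known, so its place among the genes is a description and no separate support.

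Whether the change differed between subsets was tested directly. The change was at least 3-fold more negative in iNKT1 than in iNKT2 cells at 3 Drosha regions (3.06% of all tested regions were called in either direction): exon 13 (−2.35 ± 0.670, SE, adjusted p = 0.0552), 99.2 kb (−2.22 ± 0.230, adjusted p = 0.000498) and 104.4 kb (−2.27 ± 0.686, adjusted p = 0.0701). When single libraries were left out, the call at 99.2 kb was kept in all 8 fits, while that at exon 13 was lost in 6 and that at 104.4 kb in 7. The call at 104.4 kb was also lost with renewed quantile normalization (adjusted p = 0.107) and with no variance trend (adjusted p = 0.107). Counting differences of any size, 5 Drosha regions passed (10.5% of all), among them the 70.9 kb region (−1.34 ± 0.105, adjusted p = 0.000129). Between iNKT1 and iNKT17 cells 0 Drosha regions were called at 3-fold by limma (1.42% of all), with 4 at an unadjusted p under 0.05 (8600 of 60543 over all). With the replicate number as a block, exon 13 was called there (−2.02, adjusted p = 0.0848), and the 101.1 kb region was called between iNKT1 and iNKT2 cells (−2.34, adjusted p = 0.0613 against 0.124 without the block). Between iNKT2 and iNKT17 cells 0 were called by limma (1.02% of all), with 2 at an unadjusted p under 0.05 (8968 of 60297 over all). At the 70.9 kb and the 99.2 kb region the iNKT17 change lay between those of iNKT1 and iNKT2 cells and differed from both, with differences from iNKT1 of 0.61 and 1.15 and from iNKT2 of 0.73 and 1.08 in size (adjusted p from 0.00663 to 0.0389). These comparisons share libraries, the iNKT1 ones for example, and are not independent of each other.

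The subsets also differed in how open Drosha was in C57BL/6 cells. Between iNKT1 and iNKT17 cells 3 Drosha regions were called, all more open in iNKT1 (20.5% of all tested regions were called): exon 13 (2.05, adjusted p = 0.00233), 101.1 kb (3.77, adjusted p = 0.000106) and 104.4 kb (2.03, adjusted p = 0.00290). Between iNKT2 and iNKT17 cells exon 13 (2.26), 99.2 kb (1.72) and 101.1 kb (4.02) were called, all more open in iNKT2 (16.2% of all). Between iNKT1 and iNKT2 cells 0 of 9 were called by limma at 3-fold (16.0% of all). An unadjusted p under 0.05 was found at 5 of the 9, and at 31728 of 58322 over all tested regions. Of the regions that fell in iNKT1 cells, exon 13 and 101.1 kb were thus already low in C57BL/6 iNKT17 cells.

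The mean over the 9 regions ordered the groups as follows. C57BL/6 iNKT2 cells had the highest mean (4.53 ± 0.04, SD, n = 2), then C57BL/6 iNKT1 (4.24 ± 0.03), Hivep3-/- iNKT2 (4.09 ± 0.02), C57BL/6 iNKT17 (3.16 ± 0.23), Hivep3-/- iNKT1 (2.38 ± 0.16) and Hivep3-/- iNKT17 cells (2.24 ± 0.28). Neighbours in this order did not overlap, except Hivep3-/- iNKT1 (2.26 and 2.49) and Hivep3-/- iNKT17 cells (2.04 and 2.44). By this mean the 5 loci most like Drosha among 10007 protein-coding genes with at least 3 regions were Slc1a6 (Pearson r = 0.94), Kcnq1 (0.94), Rbfox3 (0.93), Slc10a7 (0.93) and Dync2li1 (0.92), over 12 libraries. Their changes in iNKT1 cells were −1.30, −0.17, −1.06, −0.97 and −0.72, against −1.87 for Drosha.

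Around Drosha the table held 70 further regions within 1 Mb of the locus, 69 of them upstream, in and around Pdzd2, Mtmr12, Zfr and Sub1. In iNKT1 cells 0 of the 62 tested were called by limma, with 10 falls and 0 rises at an adjusted p under 0.1, where 3.93% of all tested regions fell and 5.49% rose, and a median change of −0.18. Those that fell included an intergenic region 24.0 kb upstream of the gene (3.48 ± 0.19 to 2.42 ± 0.11, SD, n = 2, adjusted p = 0.00548) and the only downstream region, 92.1 kb beyond the gene end beside Cdh6 (3.50 ± 0.01 to 1.97 ± 0.17, adjusted p = 0.00268). The upstream one also fell in iNKT17 cells, by 1.33 (adjusted p = 0.00582). In iNKT2 cells 1 of 61 was called (1.20% of all tested regions), in Pdzd2 at chr15:12579871-12580370 (2.69 ± 0.31 to 0.98 ± 1.10, adjusted p = 0.0209). In iNKT17 cells 1 of 57 was called (0.138% of all), in Pdzd2 at chr15:12429910-12430409 (2.35 ± 0.31 to 0.74 ± 1.19, adjusted p = 0.0659). The median change over these neighbours was −0.11 in iNKT2 and −0.15 in iNKT17 cells, so values in the surrounding 1 Mb also lay slightly lower in Hivep3-/- cells.

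**Figure D2:**
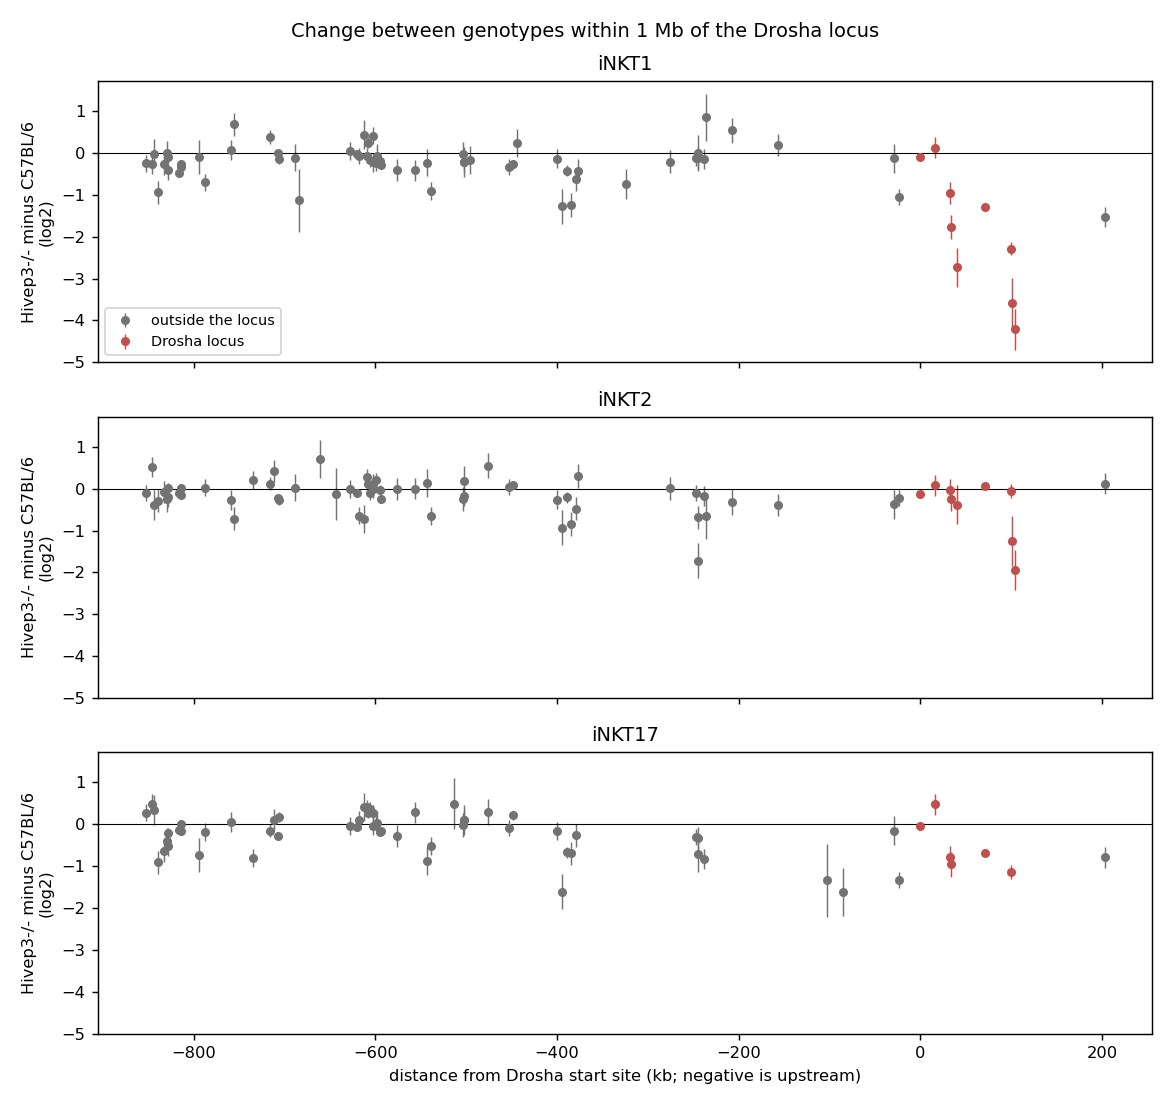
Change between genotypes (Hivep3-/- minus C57BL/6, log2; bars are 1 SE) at tested regions within 1 Mb of the Drosha locus, by distance from the Drosha start site in kb, for the 3 subsets. In iNKT1 cells the regions inside the gene (red) reach −4.21, while those outside it (grey) run from −1.53 to 0.85.

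The partners of Drosha were open and close to level between genotypes at their promoters. Over the 7 promoters and 3 subsets the 21 changes ran from −0.30 to 0.05, 0 of them passed limma, and 0 had an unadjusted p under 0.05, the smallest being 0.0512. With the replicate block 1 of the 21 passed, at Ago1 in iNKT17 cells. Their 95% intervals lay between −0.81 and 0.48. Drosha's own promoter is among them and was as level, so the promoters do not set Drosha apart from its partners. A promoter here is the most open region within 1 kb of a start site of the gene.

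Dgcr8, the RNA-binding subunit of the Microprocessor, had its promoter at chr16:18289114-18289613. It held 7.30 and 7.48 in C57BL/6 and 7.20 and 7.36 in Hivep3-/- iNKT1 cells, 7.36 and 7.61 against 7.24 and 7.59 in iNKT2 cells, and 7.37 and 7.59 against 7.23 and 7.60 in iNKT17 cells. The library numbered 2 was the higher in all 6 groups. Between libraries of the same number, the Hivep3-/- value was the lower in 5 of 6 pairs. The changes of −0.11, −0.07 and −0.07 did not pass, with or without the replicate block (adjusted p = 0.288, 0.426 and 0.575 with it). The other 3 regions of the Dgcr8 locus lie at the shared start of Ranbp1 and Trmt2a. The largest difference there, −0.48 in iNKT2 cells (3.74 and 3.94 against 2.96 and 3.76), did not pass (adjusted p = 0.311), and passed with the replicate block (adjusted p = 0.0842). For iNKT1 cells the largest was 0.20 (adjusted p = 0.631). For iNKT17 cells it was −0.25 (adjusted p = 0.746).

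Xpo5, the export receptor of the precursor hairpin, shares its promoter region (chr17:46202355-46202854) with Polh. The values were 5.19 and 5.66 against 5.20 and 5.61 in iNKT1 cells, 5.31 and 6.01 against 5.23 and 5.79 in iNKT2 cells, and 5.80 and 5.84 against 5.48 and 5.55 in iNKT17 cells. The replicates spread more than the genotypes in iNKT1 and iNKT2 cells. In iNKT17 cells the genotypes did not overlap, but the change of −0.30 did not pass (adjusted p = 0.588). The other 4 regions of the locus lie at Polr1c, Yipf3 and Lrrc73, and their largest differences in the order iNKT1, iNKT2, iNKT17 were 0.08, −0.43 and −0.39 (adjusted p = 0.926, 0.298 and 0.492). With the replicate block, the region at Polr1c and Yipf3 fell in iNKT2 cells (−0.28, adjusted p = 0.0303).

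Dicer1, the cytoplasmic RNase III enzyme, had a single region, its promoter (chr12:104751962-104752461), and the table held no other in its 64211 bp. It was at 5.53 and 5.67 against 5.64 and 5.66 in iNKT1 cells, 5.56 and 5.33 against 5.31 and 5.29 in iNKT2 cells, and 5.75 and 5.71 against 5.72 and 5.83 in iNKT17 cells. The changes of 0.04, −0.15 and 0.04 had intervals that included 0.

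Tarbp2, the double-stranded RNA-binding partner of DICER1, had the most open promoter of the 7 genes (chr15:102517770-102518269, beside the start of Map3k12). All 12 libraries lay between 7.85 and 7.99, and the changes were 0.01, 0.05 and −0.02. In iNKT1 cells the largest difference of the locus was 0.26, at a start site of Map3k12 (adjusted p = 0.465). Of the 5 other regions in its flanks, 2 in the neighbouring gene Atf7 rose under 3-fold. The region 7.97 kb from the Tarbp2 start went from 3.34 and 2.95 to 4.17 and 4.11 in iNKT2 cells (0.99 ± 0.259, SE, adjusted p = 0.0272). The region at 8.63 kb went from 3.43 and 2.94 to 3.99 and 3.74 in iNKT17 cells (0.68 ± 0.191, adjusted p = 0.0861).

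**Figure D3:**
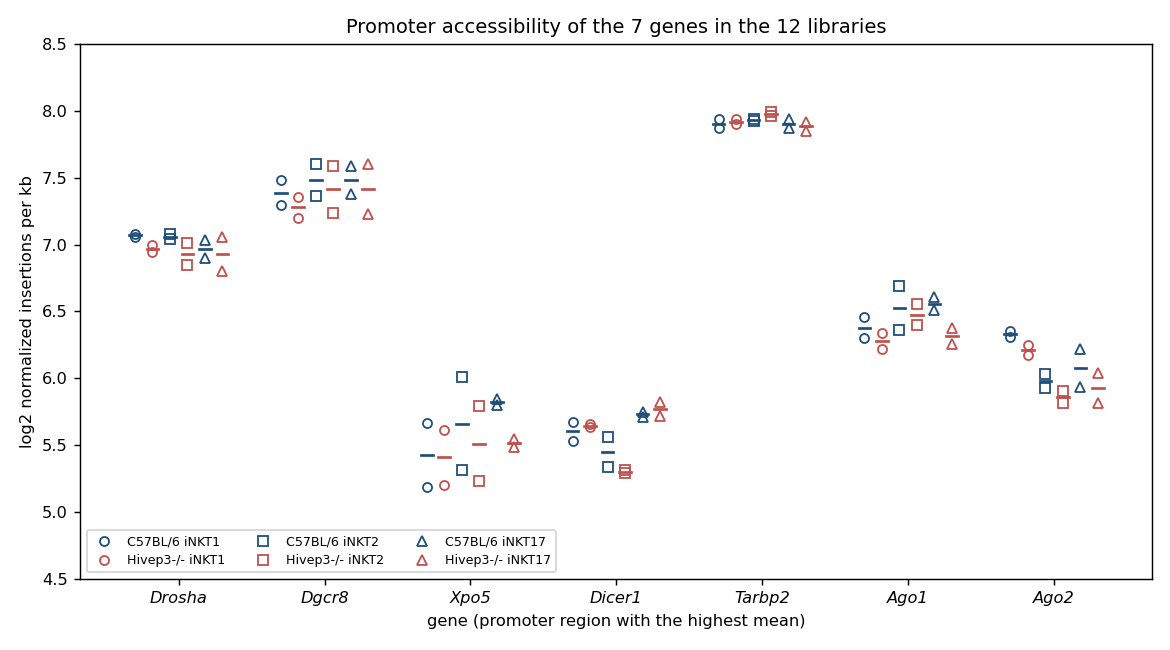
Promoter accessibility (log2 normalized insertions per kb; the axis starts at 4.5) of the 7 genes in every library; symbols are single libraries and short bars the mean of 2. Tarbp2 varies least, from 7.85 to 7.99, and Xpo5 most, from 5.19 to 6.01.

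The Argonautes, which hold the mature microRNA, also had no called region. At the Ago1 promoter (chr4:126468448-126468947) values ran from 6.22 to 6.69. The change closest to passing, −0.24 in iNKT17 cells, went from 6.60 and 6.51 to 6.26 and 6.37 (adjusted p = 0.321). It passed with the replicate block (adjusted p = 0.0910). The second promoter region of Ago1 had the largest difference among the tested regions of the locus in iNKT1 cells, 0.35 (5.10 and 5.48 against 5.43 and 5.85, adjusted p = 0.415). It was also the largest there for iNKT2 cells, at 0.15 (adjusted p = 0.708). A flank region at −9.91 kb from the Ago1 start site was open in iNKT17 cells alone among the sorted subsets. It held 3.54 and 3.45 in C57BL/6 and 3.25 and 3.40 in Hivep3-/- iNKT17 cells, and between −3.06 and −0.67 in the 8 other libraries. That made it less open by 4.69 in C57BL/6 iNKT1 and by 5.23 in C57BL/6 iNKT2 than in C57BL/6 iNKT17 cells (adjusted p = 5.76e-05 and 3.13e-05), while its change with genotype in iNKT17 cells was −0.17 (adjusted p = 0.946).

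Ago2, the Argonaute that can cut its target, had the broadest open locus, with 26 regions, 22 of them numbered to introns or exons of the gene and away from its start site. Its promoter (chr15:73185136-73185635) was at 6.35 and 6.31 against 6.17 and 6.25 in iNKT1 cells, 6.03 and 5.92 against 5.91 and 5.81 in iNKT2 cells, and 6.22 and 5.93 against 5.82 and 6.04 in iNKT17 cells, and its changes of −0.12, −0.12 and −0.15 did not pass. Inside the gene, small rises passed the test of p and none reached 3-fold. The counts were 1, 6 and 4 of 26 regions in iNKT1, iNKT2 and iNKT17 cells, with 0 falls. With the replicate block 2 Ago2 regions fell, at 14.2 kb in iNKT2 (−0.43, adjusted p = 0.0143) and at 1.63 kb in iNKT17 cells (−0.36, adjusted p = 0.0728). Including the Tarbp2 flanks, the 6 partner genes had 1 of 46, 7 of 46 and 5 of 47 rising regions, against 5.49%, 8.26% and 2.66% of all tested regions. With the block these were 6, 8 and 9, against 8.41%, 12.3% and 6.21% of all. At 3-fold, rises made up 0.890%, 0.474% and 0.133% of all tested regions and 0 of those of the 7 genes.

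The Ago2 region with the smallest p in iNKT1 cells, in intron 13 at 66.8 kb (chr15:73117874-73118373), went from 5.35 and 5.41 to 5.96 and 5.95 (0.58 ± 0.0813, SE, adjusted p = 0.00101). It also rose in iNKT2 cells, from 6.74 and 6.78 to 7.07 and 7.18 (0.37, adjusted p = 0.0122). In iNKT17 cells it was at 6.30 and 6.29 against 6.09 and 6.20, and the iNKT1 change differed from the iNKT17 one by 0.73 (adjusted p = 0.00779). In iNKT2 cells the largest rise was at 47.7 kb in intron 3, from 5.05 and 5.15 to 5.79 and 5.74 (0.66 ± 0.145, adjusted p = 0.0117). In iNKT1 cells the 14.2 kb region differed as much as the 66.8 kb one (0.58, 5.58 and 5.68 against 6.12 and 6.30) and did not pass (adjusted p = 0.112).

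In iNKT17 cells the largest rise of Ago2 was at 37.9 kb in intron 1 (chr15:73146739-73147238), from 4.49 and 4.88 to 5.34 and 5.51 (0.74 ± 0.118, SE, adjusted p = 0.00855). This region was the Ago2 region that separated the subsets most in C57BL/6 cells. It was at 7.33 and 7.52 in iNKT1 and 6.57 and 6.51 in iNKT2 cells, which is 6.67-fold and 3.62-fold above iNKT17 cells (adjusted p = 1.59e-09 and 7.62e-08). In iNKT1 and iNKT2 cells it did not move with genotype beyond its spread, with 7.41 and 7.36, and 6.56 and 6.57, in the Hivep3-/- libraries. The iNKT17 change differed from the iNKT1 change by 0.78 (adjusted p = 0.0343) and from the iNKT2 change by 0.72 (adjusted p = 0.0548) in size. A second region of intron 1, at 15.9 kb, was also called between C57BL/6 iNKT1 and iNKT17 cells (1.62, adjusted p = 0.000339).

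**Figure D4:**
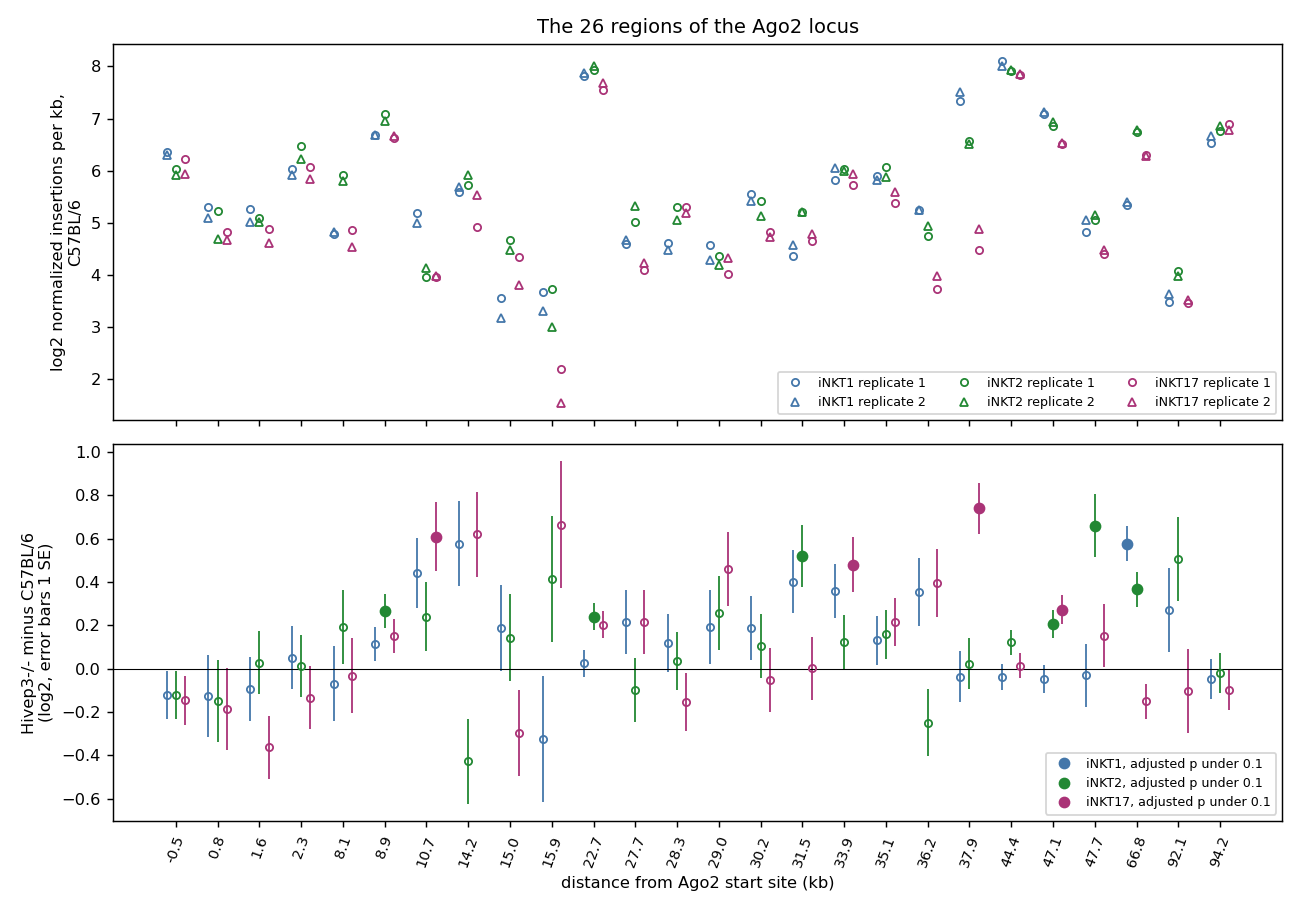
The 26 Ago2 regions by distance from the start site in kb. The upper panel gives accessibility in each C57BL/6 library (log2 normalized insertions per kb), the lower panel the change between genotypes with 1 SE; filled points passed an adjusted p under 0.1. All 11 filled points lie above 0 and none reaches 1.

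**Figure D5:**
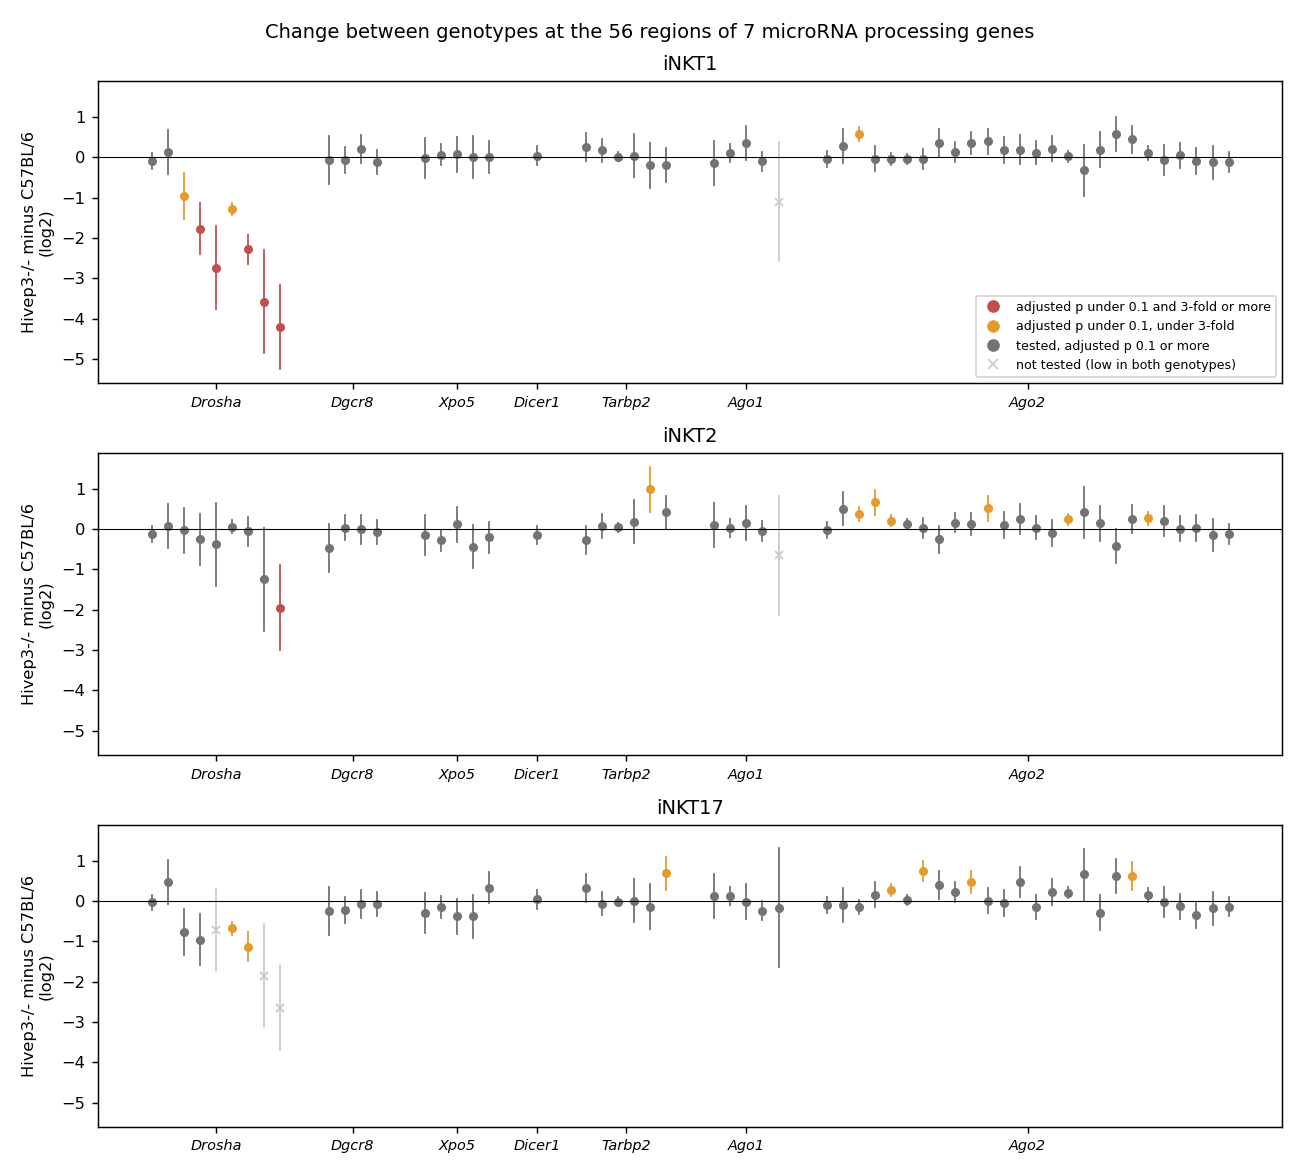
Change between genotypes (Hivep3-/- minus C57BL/6, log2, with 95% intervals) at the 56 regions of the 7 genes, in genome order within a gene, for the 3 subsets. The red points, at least 3-fold and an adjusted p under 0.1, are 5 Drosha regions in iNKT1 and 1 in iNKT2 cells; crosses were too low to test.

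Set side by side, the tested regions of the 6 partner genes ran from −0.33 to 0.58 in iNKT1, −0.48 to 0.99 in iNKT2 and −0.39 to 0.74 in iNKT17 cells, with medians of 0.04, 0.06 and −0.02. Those of Drosha ran from −4.21 to 0.13, −1.95 to 0.08 and −1.13 to 0.48. At an unadjusted p under 0.05 the partner genes had 6 of 46, 11 of 46 and 11 of 47 regions. Over all tested regions there were 9644 of 54145, 13911 of 55049 and 8570 of 54311. Subsets were then compared as iNKT1 against iNKT2, iNKT1 against iNKT17 and iNKT2 against iNKT17 cells. Partner changes differed at least 3-fold at 0 regions by limma, where 3.06%, 1.42% and 1.02% of all were called. Those at an unadjusted p under 0.05 were 8 of 46, 5 of 47 and 9 of 47. Over all regions there were 12444 of 59926, 8600 of 60543 and 8968 of 60297. At such shares 0 calls say little about these genes.

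A wider list of 29 genes that act with this machinery was counted in the same way. Of these, 26 had at least 1 region, 156 in all, 2 of which also lie in the flanks of a gene described above. In iNKT1 cells 1 of 137 tested regions was called higher and 0 lower, against 0.890% and 0.264% of all tested regions. In iNKT2 cells 1 of 149 was called lower and 0 higher, against 1.20% and 0.474%. In iNKT17 cells 0 of 140 were called by limma, against 0.138% lower and 0.133% higher. There 23 had an unadjusted p under 0.05, against 8570 of 54311 over all tested regions. The rise was in Tnrc6c, which encodes a GW182 protein that binds Argonautes (0.89 ± 0.56 to 2.57 ± 0.59, SD, n = 2, adjusted p = 0.0108). The fall was in Adarb1, which encodes an RNA-editing deaminase (2.84 ± 0.56 to 0.31 ± 1.00, adjusted p = 0.0209). Falls of any size at an adjusted p under 0.1 numbered 1, 10 and 3, and rises 9, 10 and 4, in the 3 subsets, with medians of 0.01, −0.01 and −0.03. Over all tested regions falls made up 3.93%, 8.16% and 1.99% and rises 5.49%, 8.26% and 2.66%. The changes in iNKT1 and iNKT2 cells differed at least 3-fold by limma at 2 of 154 tested regions, against 3.06% of all. These were 1 region each of Ncbp1 (−1.78, adjusted p = 0.0657) and Adarb1 (−2.98, adjusted p = 0.0141). Between iNKT1 and iNKT17 cells 1 of 147 was called, the Tnrc6c region (1.98, adjusted p = 0.0600), against 1.42% of all.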

How the data were processed

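ATAC-seq was measured in 12 libraries. Per the study's methods and the submitters' processing notes, the authors trimmed reads with Trimmomatic (version 0.39), aligned them to mm10 with the ENCODE ATAC-seq pipeline, merged the peaks into 500 bp regions with chromVAR and counted transposase insertions in each region. The deposited values are log2 insertions per kb after voom and quantile normalization by the authors, so differences in total accessibility between libraries are removed. Read counts were not used here, the depth is unknown, and no interval for counting error is given. Linear values sum to between 1915051 and 1919037 per library.

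Samples were grouped by the genotype and subset in their labels. limma 3.58.1 (R 4.3.3) was run on all 63309 regions and 12 libraries with 1 mean per group, empirical Bayes moderation with a variance trend, and contrasts for genotype in each subset, their mean, their differences, and the subsets in C57BL/6 cells. Benjamini-Hochberg adjustment ran over all tested regions. A mean of at least 5 on the linear scale was required in either compared group (in any group involved, for the mean and the differences). The 95% intervals are from the same fit. The script was tested on simulated data. Regions were placed with GENCODE vM21 on GRCm38.p6 with Python 3.11.15, and positions are 1-based. The sequence of 1 called Drosha region and 2 of the marker genes are not reported here.

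The text names all 7 genes, every Drosha region, and for each other gene its promoter, called regions and the region with the largest change in each subset. For the wider list, and for the neighbours of Drosha, it names those with a called region, and it names the 5 loci with the highest correlation to Drosha. Other regions of the 7 genes and of the neighbourhood that passed the test were picked with their values in view. The members and lists were chosen with earlier results of these data known.

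Neither the labels nor the methods say what a replicate number shares. Same-numbered libraries deviated together from their group means, with correlations over all regions of 0.171, 0.145 and 0.113 between the genotypes in iNKT1, iNKT2 and iNKT17 cells and from 0.0911 to 0.174 over all pairs of groups. A fit with the replicate number as a block is therefore given beside the results whose calls it changed. The other alternatives were the filter, an added pseudocount, renewed quantile normalization, no variance trend, a 2-fold threshold, the compared groups alone, the width of the locus, and leaving out each library.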

Additional observations from a re-analysis of the deposited data

Results flagged for a closer look

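The difference of the change with genotype between iNKT1 and iNKT2 cells passed its own test at 3 Drosha regions, and it had the same direction at each. At exon 13 (40.0 kb) it was −2.35, the iNKT1 change being −2.73 and the iNKT2 change −0.38. At 99.2 kb it was −2.22, from −2.28 and −0.06. At 104.4 kb it was −2.27, from −4.21 and −1.95, so this region fell in both subsets and more in iNKT1 cells.

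Their support differed. The call at 99.2 kb was kept when any of the 8 libraries involved was left out. That at exon 13 was lost in 6 of 8 such fits and that at 104.4 kb in 7 of 8, where the values ran from −2.62 to −2.09 and from −2.67 to −1.86. The call at 104.4 kb was also lost with renewed quantile normalization (adjusted p = 0.107) and with no variance trend (adjusted p = 0.107). With a pseudocount of 5 the 3 values were −0.79, −1.56 and −0.99, all under 3-fold. Exon 13 was not tested where a mean of 5 over the 12 libraries was required. The number of distinct values below the median was 227 and 491 in the Hivep3-/- iNKT1 libraries and 91 and 118 in the Hivep3-/- iNKT2 libraries, and its part in the results was not tested.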

How the results depend on the processing

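The 6 genes other than Drosha had 0 regions called between genotypes in each subset under every alternative run. At Drosha, a pseudocount of 5 left 3 of 5 calls in iNKT1 cells, 0 of 1 in iNKT2, 0 of 2 for the mean of the subsets, 0 of 3 between iNKT1 and iNKT2, and 1 of 3 between C57BL/6 iNKT1 or iNKT2 and iNKT17 cells (1 of 3 at the other genes for iNKT1). Over all regions the calls of the first 4 went from 625 to 26, 923 to 68, 335 to 4 and 1836 to 184. Between C57BL/6 iNKT1 and iNKT17 cells they went from 12168 to 4987, and between iNKT2 and iNKT17 from 9543 to 3276. At Drosha a pseudocount of 1 gave 0 in iNKT2, 1 for the mean and 2 between iNKT1 and iNKT17. Over all regions it gave 594, 57 and 536, against 923, 335 and 860 without it. Without a filter, or with a mean over the 12 libraries of 5 or more, 1 Drosha region was called in iNKT17 cells, and the latter left 1 of 2 at the other genes between C57BL/6 iNKT2 and iNKT17. Over all regions iNKT17 calls numbered 469 without a filter and 236 with that mean, against 147. Between C57BL/6 iNKT2 and iNKT17 that mean gave 7051, against 9543. At 2-fold, Drosha had 1 call in iNKT17, 4 for the mean, 5 for iNKT1 against iNKT2, 1 for iNKT1 against iNKT17, 1 for iNKT2 against iNKT17, and 2 between C57BL/6 iNKT1 and iNKT2. Over all tested regions, in the same order, these were 743 of 54311, 1509 of 63308, 4001 of 59926, 1657 of 60543, 1317 of 60297 and 15927 of 58322. The other genes at 2-fold had 2 for iNKT1 against iNKT2, 1 for iNKT2 against iNKT17, and 6 in each comparison of C57BL/6 subsets. Over all tested regions those C57BL/6 comparisons had 15927 of 58322 (iNKT1 and iNKT2), 18788 of 59317 (iNKT1 and iNKT17) and 15392 of 58866 (iNKT2 and iNKT17). At Drosha the replicate block gave 1 call between iNKT1 and iNKT17 and 4 between iNKT1 and iNKT2. It changed no other count of calls at 3-fold for these genes. Over all regions it gave 1138 and 2106 calls in those comparisons, against 860 and 1836. In iNKT1 cells Drosha had 6 calls at 2-fold, 4 with a pseudocount of 1 (33.5 kb lost) and 4 with a mean over the 12 libraries of 5 or more (exon 13 not tested). Over all regions these settings gave 1928, 388 and 758 calls, against 625.

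Leaving out each library gave 4 to 5 Drosha calls in iNKT1 (4 without Hivep3-/- iNKT1 replicate 1), 0 to 1 in iNKT2 (0 without C57BL/6 iNKT2 replicate 1), 0 to 0 in iNKT17 and 2 to 2 for the mean. Between iNKT1 and iNKT2 it gave 1 to 3 (1 without C57BL/6 iNKT1 replicate 1 or C57BL/6 iNKT2 replicate 2), between iNKT1 and iNKT17 0 to 3 (1 without C57BL/6 iNKT17 replicate 1, 3 without Hivep3-/- iNKT17 replicate 1) and between iNKT2 and iNKT17 0 to 1 (1 without Hivep3-/- iNKT17 replicate 2). A group left with 1 library was assumed to vary like the others. A pseudocount shrinks differences of low values by construction, and the cause of the other shifts was not tested. No value reversed.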
